A study of Homo sapiens with 3 samples.

Results

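Ubiquitin-specific proteases are the largest family of human deubiquitinases. Their genes were taken as those whose platform symbol is USP followed by digits, with USP18 left out, among probe sets that carry a single gene symbol. This gave 45 genes on 134 probe sets, of 18132 genes in all. They were measured in KYSE180, an established line of human oesophageal squamous carcinoma cells, with 1 array in each of 3 groups. These were control cells, cells transfected with the vector LZRS_HOTAIR for the long non-coding RNA HOTAIR using Polyfect, and cells given a mixture of siRNAs against HOTAIR (100 pmol) using Lipofectamine2000. RNA of the transfected cells was taken after 48 h. The control is labelled only as control, with no statement of a reagent or negative-control siRNA for that sample. The siRNA sample is KYSE180 by its title and cell line field, although its source name speaks of a HOTAIR cell line. HOTAIR itself had no probe set named here, so neither manipulation could be checked by its target.

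Ubiquitin is attached to proteins by a cascade of E1, E2 and E3 enzymes, and deubiquitinases remove it again. The USP proteins are cysteine proteases that share a catalytic fold and differ in the domains around it. By trimming ubiquitin from chosen substrates they regulate histones, DNA repair, receptor traffic, the proteasome and signalling pathways such as Wnt and TGF-beta. In carcinoma cells members of the family are studied as regulators of p53, MYC and growth factor receptors.

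Signals are log2 values made with RMA, so a difference of 1 is 2-fold. Where a gene had several probe sets, the one brightest on average was used. A gene was kept if the mean of that probe set reached 5.28 (log2), which is the median over all probe sets on the arrays. This kept 35 USP genes and 10917 genes in all. With 1 array per group there is no replicate error and no test, and it is this number that limits precision. Probe sets of the same gene gave a partial check. Over 22 USP genes with at least 2 of them above 5.28, the SD of their log2 differences within a gene was 0.33 between vector and control, 0.35 between siRNA and control and 0.19 between vector and siRNA.

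The control array stood apart from the others. Over the 10917 genes kept, the SD of the log2 difference was 0.92 between vector and control, 0.84 between siRNA and control, and 0.45 between vector and siRNA. The comparisons with control share that array, so they are given side by side and the agreement between them is not counted as a result. Its part in the differences from control was not tested, and the comparison of vector with siRNA cells leaves it out. The keratin genes KRT5 and KRT14 and the desmosomal gene DSG3, markers of squamous epithelium, had log2 signals from 10.23 to 13.38. TP63, KRT6A and KRT17 were also on that marker list but had no single-symbol probe set. KRT14 had 13.38, 12.22 and 13.01 in control, vector and siRNA cells and KRT5 had 12.64, 11.72 and 12.47, both lowest in vector cells. DSG3 went the other way, with 10.23, 10.90 and 11.10. The part of these markers in the results was not tested. Leukocyte, endothelial and fibroblast markers (PTPRC, CD3E, PECAM1, VWF, COL1A1, COL3A1) all had means below 5.28.

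Of the 45 genes, 36 had a promoter in the RefSeq promoter table (GRCh38.p14), and 9 did not (USP24, USP26, USP31, USP37, USP42, USP43, USP44, USP48 and USP51). The 250 bases before the start are shown for 4 genes that were far above control in the transfected cells and for 2 that were not, so that genes of either kind can be compared. They lie on the plus strand for USP1 (chr1:62436145-62436394), USP15 (chr12:62260154-62260403), USP16 (chr21:29024418-29024667), USP5 (chr12:6851900-6852149) and USP39 (chr2:85602611-85602860), and on the minus strand for USP33 (chr1:77759853-77760102). Each is written 5′ to 3′ along its gene, and capitals mark matches to the motifs spelled out in the next paragraph.
USP1: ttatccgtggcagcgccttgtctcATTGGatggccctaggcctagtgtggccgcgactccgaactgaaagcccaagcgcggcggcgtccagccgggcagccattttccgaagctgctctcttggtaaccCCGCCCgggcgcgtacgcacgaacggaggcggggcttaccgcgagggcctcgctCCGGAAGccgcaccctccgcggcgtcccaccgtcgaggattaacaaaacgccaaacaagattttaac
USP15: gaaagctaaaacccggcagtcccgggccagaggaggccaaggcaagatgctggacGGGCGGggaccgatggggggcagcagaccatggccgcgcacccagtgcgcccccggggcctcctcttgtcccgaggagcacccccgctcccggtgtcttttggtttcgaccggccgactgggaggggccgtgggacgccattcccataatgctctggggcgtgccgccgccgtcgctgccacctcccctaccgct
USP16: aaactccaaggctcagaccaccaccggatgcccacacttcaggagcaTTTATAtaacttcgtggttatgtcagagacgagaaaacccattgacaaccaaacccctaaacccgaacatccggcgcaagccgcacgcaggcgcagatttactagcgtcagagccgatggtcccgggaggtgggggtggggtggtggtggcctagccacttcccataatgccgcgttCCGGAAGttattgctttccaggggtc
USP33: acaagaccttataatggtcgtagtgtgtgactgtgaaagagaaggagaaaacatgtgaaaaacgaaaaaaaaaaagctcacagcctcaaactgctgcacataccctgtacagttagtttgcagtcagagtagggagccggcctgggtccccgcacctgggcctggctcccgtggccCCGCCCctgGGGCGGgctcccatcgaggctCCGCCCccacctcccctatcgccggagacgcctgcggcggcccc
USP5: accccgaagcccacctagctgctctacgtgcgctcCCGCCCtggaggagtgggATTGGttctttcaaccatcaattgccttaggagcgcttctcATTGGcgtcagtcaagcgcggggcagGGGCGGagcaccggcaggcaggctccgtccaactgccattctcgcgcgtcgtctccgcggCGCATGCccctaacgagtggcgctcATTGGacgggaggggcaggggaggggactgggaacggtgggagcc
USP39: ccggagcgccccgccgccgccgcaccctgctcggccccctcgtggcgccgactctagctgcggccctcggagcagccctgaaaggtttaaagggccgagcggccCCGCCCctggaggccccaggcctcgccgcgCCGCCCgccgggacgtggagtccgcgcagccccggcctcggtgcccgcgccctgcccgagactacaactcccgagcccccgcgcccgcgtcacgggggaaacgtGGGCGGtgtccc

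The motifs searched on both strands were GGGCGG for the GC box, CCAAT for the CCAAT box, CCGGAAG for an ETS factor core and GCATGCG for an NRF1 core. Others were TTTGGCGC or TTTCGCGC for E2F, TGACGT for a CRE core, CACGTG for an E-box and TATAAA for a TATA element. The GC box was in 27 of the 36 USP promoters (75%), against 42.3% of 27305 promoters in the table. The ETS core was in 8 of 36 (22.2%), against 8.82%. The median GC content was 70% for the USP promoters and 58% for all. The comparison took every promoter in the table, whether or not its gene was kept, and was not matched for GC content. Within the family, 11 promoters belonged to genes kept that exceeded control 2-fold in vector cells and 17 to the other genes kept. The GC box was in 9 of the 11 and 13 of the 17, the ETS core in 3 and 3, and the CCAAT box in 3 and 4. USP16 had an ETS core and a TATA match and no GC box, while USP33 had 3 GC boxes, as did USP39, which was not higher than control. These matches describe letters in this window and are not evidence of binding.

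A large part of the family had higher signals in HOTAIR vector cells than in control cells. Of the 35 USP genes kept, 15 (42.9%) were at least 2-fold higher, against 15.2% of all 10917 genes, and 0 were at least 2-fold lower, against 2.05%. The 0 is near that small share and does not set the family apart. The median difference of the 35 was 0.30 (log2), and that of all genes kept was -0.18. The filter itself favours such genes, since USP15, USP16, USP44 and USP53 had control signals below 5.28 and passed through their levels in transfected cells. Over all 45 genes with no filter, 16 (35.6%) were at least 2-fold higher, USP45 among them, against 10.1% of 18132 genes. With the filter set on the control array alone, 11 of 33 (33.3%) were, against 12.4%.

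The siRNA cells were set against the same control array. There 16 of the 35 genes kept (45.7%) were at least 2-fold higher, against 14.9% of all genes, and 0 were lower, against 1.85%. Over all 45 genes 17 (37.8%) were higher, against 9.81%, and with the filter on the control array 12 of 33 (36.4%), against 12.1%. The median of the 35 was 0.54, and that of all genes kept was -0.17. This median turned to -0.048 over the 27 USP genes left when probe sets of a gene were averaged, although 9 of those 27 (33.3%) were still at least 2-fold higher, against 11.3% of all genes there.

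**Figure D1:**
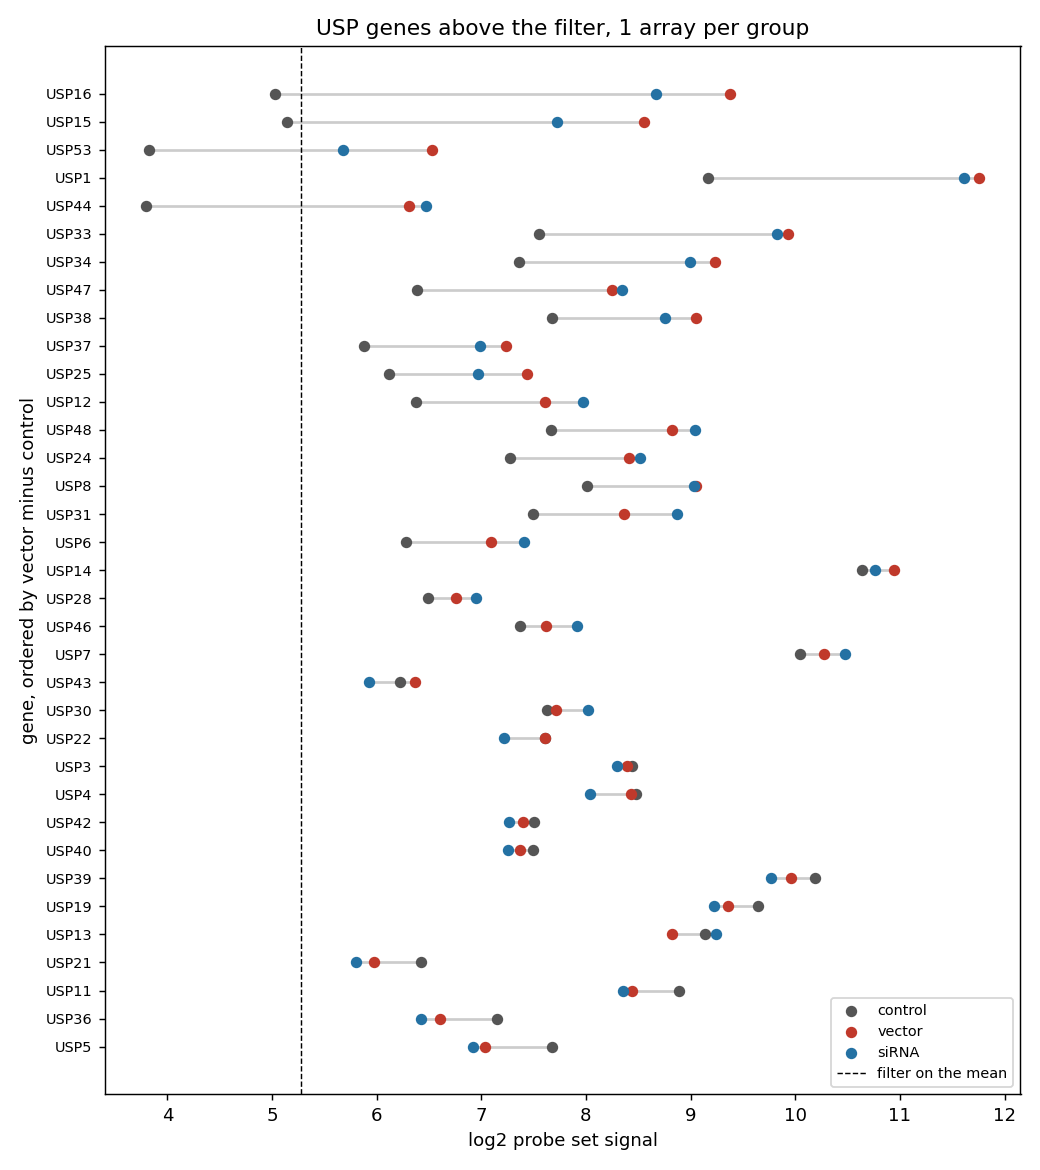
Log2 probe set signal (x axis) of the 35 USP genes kept (y axis, ordered by vector minus control) on the control, vector and siRNA arrays, 1 array each; the dashed line is the filter on the mean, 5.28. From USP16 down to USP6 the control point lies left of both transfected points, and for the genes at the bottom, such as USP5 and USP36, it lies to their right.

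No USP gene kept was 2-fold apart between vector and siRNA cells. Of the 35 genes kept, 0 were at least 2-fold higher in vector cells, against 1.73% of all genes, and 0 were lower, against 1.85%. A count of 0 among 35 genes is near shares this small and does not set the family apart. The differences ran from -0.51 for USP31 to 0.85 for USP53, with a median of 0.12, against 0.01 for all genes kept. At 1.5-fold, 3 of the 35 were higher in vector cells, against 4.74% of all genes, and 0 were lower, against 4.95%. These 3 were USP53 (0.85), USP15 (0.82) and USP16 (0.70). The other probe set of USP53, whose mean was below 5.28, was at 1.32, and the average of both was 1.09, past 2-fold. The other probe set of USP16 was at 0.78. The other USP15 probe set above 5.28 was at 0.63, and the average over its 7 probe sets was 0.38, under 1.5-fold.

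**Figure D2:**
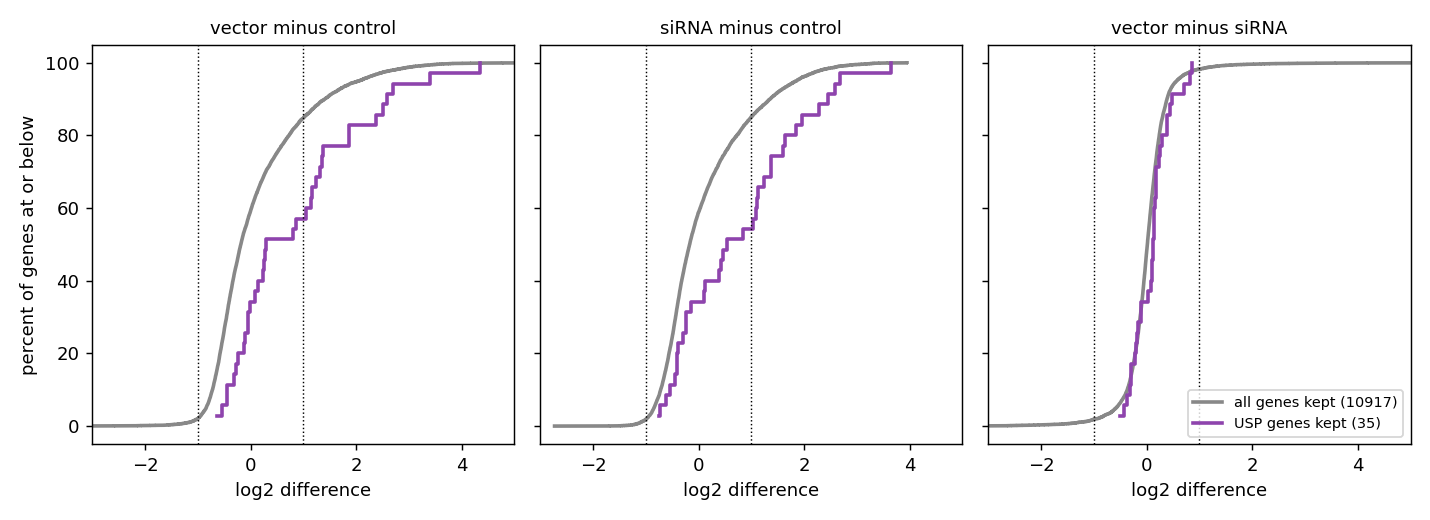
Percent of genes at or below each log2 difference (y axis) for the 35 USP genes kept (purple) and all 10917 genes kept (grey), in each comparison; dotted lines mark 2-fold. The purple curves lie to the right of the grey ones against control, where 42.9% and 45.7% of USP genes lie past 2-fold, and no USP gene lies past 2-fold between vector and siRNA cells. Of all genes kept, 1.73% lie 2-fold higher and 1.85% 2-fold lower in that last comparison.

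Genes were grouped by role, and a gene may stand in several lists. Deubiquitinases of histones H2A and H2B remove marks linked to transcription and to the DNA damage response, and they differed among themselves. Of 9 such genes kept, 3 were at least 2-fold higher than control in vector cells and 3 in siRNA cells, with 0 lower, and the list medians were -0.01 and -0.14. The share of all genes kept was 15.2% and 14.9%, which is the measure for each list that follows. For genes 2-fold lower it was 2.05% and 1.85%, so counts of 0 lower in lists this small are not read as results. USP16 and USP44 passed the filter through the transfected arrays, and with the filter on the control array 1 of 7 (14.3%) was higher in each group, against 12.4% and 12.1% of all genes. USP16 encodes an H2A deubiquitinase needed for chromosome segregation in mitosis. Its log2 signals were 5.03 (control), 9.37 (vector) and 8.67 (siRNA), so the control was lowest by far, with differences of 4.34 and 3.64. Its other probe set had 3.01 and 2.22. USP44, which acts on H2B and in the spindle checkpoint, had 3.80, 6.31 and 6.48. The control signal of USP44 was close to that array's lower quartile (3.72), and its differences of 2.51 and 2.68 are therefore uncertain in size. USP12, which works with the activator WDR48, had 6.38, 7.61 and 7.97, or differences of 1.23 and 1.60. Averaged over its 3 probe sets the vector difference of USP12 was 0.94.

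The other histone deubiquitinases kept, apart from USP46 described with its relatives, lay at or below control. USP22, the H2B deubiquitinase of the SAGA complex, had log2 signals of 7.61, 7.60 and 7.21 in control, vector and siRNA cells. USP3, which acts on H2A, had 8.44, 8.39 and 8.30. The nucleolar USP36 had 7.15, 6.61 and 6.42, and its relative USP42 had 7.50, 7.40 and 7.26. USP21 was at -0.45 in vector and -0.61 in siRNA cells, also below control. None of these reached 2-fold in any comparison.

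USP genes of DNA repair, p53 control and replication had 10 members kept, with 5 at least 2-fold higher than control in vector cells, 5 in siRNA cells and 0 lower (50%, against 15.2% and 14.9% of all genes kept). The count was also 5 of 10 with the filter on the control array, against 12.4% and 12.1% of all genes. USP1 removes ubiquitin from FANCD2 and PCNA, proteins of crosslink repair and damage bypass. Its log2 signals were 9.16 (control), 11.75 (vector) and 11.61 (siRNA), well above 5.28 on every array. The differences were 2.59 and 2.45, and its other probe set above 5.28 gave 3.35 and 2.75. USP47, linked to base excision repair through DNA polymerase beta, had signals of 6.38, 8.25 and 8.35. All 3 of its probe sets above 5.28 were at least 2-fold higher, from 1.86 to 2.44 in vector and from 1.96 to 2.33 in siRNA cells.

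Smaller differences were seen for the rest of that list. USP37, which stabilises cyclin A, had log2 signals of 5.88, 7.24 and 6.98 in control, vector and siRNA cells. USP24 had 7.27, 8.41 and 8.52, with its other probe set at 1.22 and 1.05 above control. The names of both USP24 probe sets end in _s_at. USP48 had 7.67, 8.83 and 9.05. These calls were near the threshold. Averaged over probe sets USP37 was at 0.71 and 0.54 and USP48 at 0.93 and 0.96, and after repeated quantile normalization USP24 was at 0.94 and USP48 at 0.96 in vector cells. USP7, which controls MDM2 and p53, had 10.05, 10.27 and 10.47, and its 5 probe sets lay between -0.15 and 0.23 in vector and between -0.23 and 0.42 in siRNA cells. USP28, known for stabilising MYC, had 6.49, 6.76 and 6.95, and USP11 had 8.89, 8.44 and 8.35.

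In the list for Wnt, TGF-beta and Hippo signalling, 3 of 5 genes kept were at least 2-fold higher than control in each transfected group and 0 lower, against 15.2% and 14.9% of all genes kept. With the filter on the control array, which leaves out USP15, it was 2 of 4, against 12.4% and 12.1% of all genes. USP15, which acts on TGF-beta receptors and SMAD proteins, had log2 signals of 5.14, 8.55 and 7.73 in control, vector and siRNA cells. Its differences were 3.41 and 2.58. Only 2 of its 7 probe sets had means above 5.28, the other of these at 2.67 and 2.04, and the mean over all 7 was 1.05 in vector and 0.67 in siRNA cells. USP34, which acts on axin in the Wnt pathway, had 7.36, 9.23 and 8.99, or 1.87 and 1.64 above control. USP47 was given with DNA repair, and the remaining members were USP4, with 8.48, 8.43 and 8.04, and USP11.

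USP genes of endosomes and membrane receptors had 4 members kept. Of these, 2 were at least 2-fold higher in vector and 3 in siRNA cells, against 15.2% and 14.9% of all genes kept. With the filter on the control array it was 2 and 3 of 5, against 12.4% and 12.1% of all genes. USP8, which acts on receptors sorted at endosomes, had log2 signals of 8.005 (control), 9.05 (vector) and 9.03 (siRNA). Its 4 probe sets were between 1.05 and 2.02 above control in vector and between 0.92 and 1.71 in siRNA cells. On the probe set used, USP8 dropped just under 2-fold after repeated quantile normalization (0.86 and 0.87) and after cyclic loess in vector cells (0.996). USP6 had 6.28, 7.09 and 7.40. USP6 is close in sequence to USP32, for which no single-symbol probe set was listed, and its probe set name ends in _s_at, so its signal is uncertain. Averaged over its 3 probe sets USP6 was at 0.41 in siRNA cells.

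Of 5 genes kept that serve the proteasome, free ubiquitin chains and the endoplasmic reticulum, 1 (20%) was at least 2-fold higher in vector cells, against 15.2% of all genes kept, and 0 in siRNA cells, against 14.9%. The 1 was USP25, with 6.11, 7.44 and 6.96. USP5, which takes apart free ubiquitin chains, was the USP gene furthest below control among those kept, with 7.67, 7.03 and 6.92. USP14, which sits on the proteasome, had 10.64, 10.94 and 10.77 on the probe set used. Its 4 probe sets did not match, ranging from 0.30 to 1.33 in vector and from 0.13 to 1.27 in siRNA cells. USP13 had 9.14, 8.82 and 9.24, but another of its 3 probe sets was at 1.05 in siRNA cells. USP19, which is anchored in the endoplasmic reticulum, had 9.64, 9.36 and 9.22.

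Among USP genes of centrosome and cilium 3 of 4 kept were at least 2-fold higher than control in each transfected group, against 15.2% and 14.9% of all genes kept. With the filter on the control array, which leaves out USP44, it was 2 of 4, against 12.4% and 12.1% of all genes. USP33, which acts on the centrosomal protein CP110, had log2 signals of 7.55 (control), 9.94 (vector) and 9.83 (siRNA). Both of its probe sets were more than 2-fold higher, by 2.39 and 2.34 in vector and by 2.28 and 1.90 in siRNA cells. The others were USP37 and USP44. In the list for innate immune and NF-kB signalling 5 genes were kept, USP27X included. Of these, 2 were at least 2-fold higher in vector (USP25, USP38) and 2 in siRNA cells (USP31, USP38), against 15.2% and 14.9% of all genes kept. With the filter on the control array it was 2 of 6 in each group, against 12.4% and 12.1% of all genes. USP38 had 7.67, 9.05 and 8.75, and USP31 had 7.49, 8.36 and 8.87, so the highest USP31 signal was in siRNA cells. All 3 USP31 probe sets were at least 2-fold higher in siRNA cells, from 1.02 to 1.70. USP38 was at 0.95 in siRNA cells after averaging its probe sets and 0.95 after repeated quantile normalization. Its other probe set above 5.28 was at 1.14 in vector and 0.67 in siRNA cells.

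USP30, the deubiquitinase of the outer mitochondrial membrane, had 7.63, 7.72 and 8.02. With USP8 and USP15 the mitochondrial list had 2 of 3 genes kept at least 2-fold higher in each transfected group. The share of all genes kept was 15.2% and 14.9%. With the filter on the control array it was 1 of 2, against 12.4% and 12.1% of all genes. USP39, a splicing factor without deubiquitinase activity, had 10.19, 9.95 and 9.77. USP53, a tight junction protein long described as lacking that activity, had 3.83, 6.53 and 5.68. The control signal of USP53 was near the lower quartile of its array, and its other probe set, with a mean below 5.28, was 3.78 and 2.46 above control. The names of both USP53 probe sets also end in _s_at. The remaining genes kept were USP40, at -0.12 and -0.24 against control, and USP43, at 0.15 and -0.29.

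**Figure D3:**
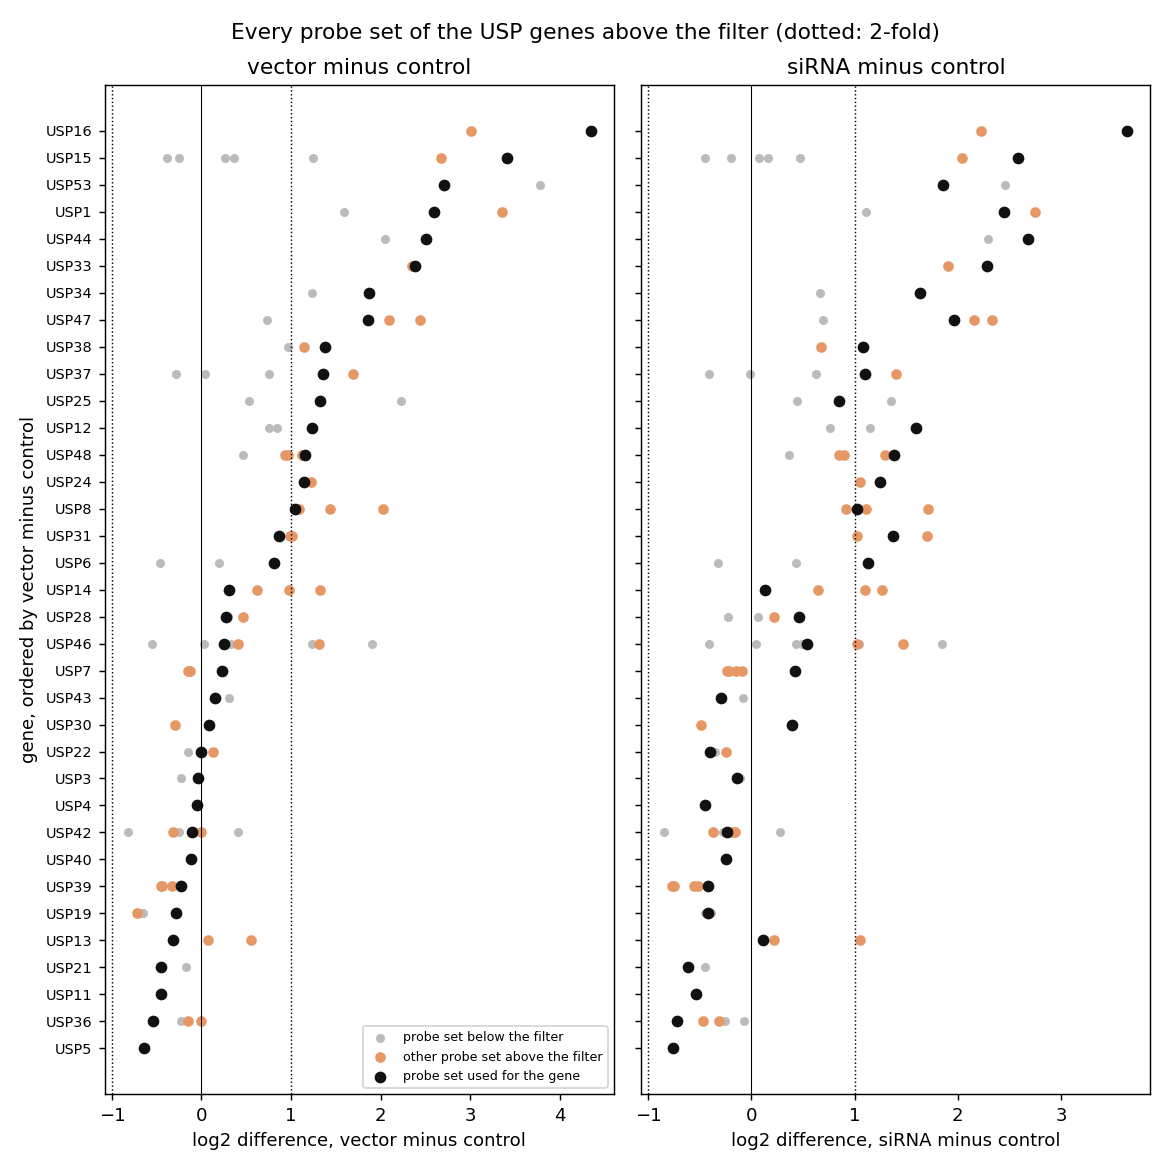
Log2 difference from control (x axes) in vector and siRNA cells for every probe set of the 35 USP genes kept (y axis); black points are the probe sets used, orange ones the others with a mean of at least 5.28, grey ones those below it, and dotted lines mark 2-fold. Probe sets of USP16, USP1, USP33 and USP24 lie past 2-fold together, while those of USP15, USP37 and USP46 spread from near 0 to past it.

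The filter left out 10 of the genes. These were USP2, USP20, USP26, USP29, USP35, USP45, USP49, USP50, USP51 and USP54, with log2 signals from 2.72 to 5.70. USP45 had 3.90 (control), 5.70 (vector) and 5.65 (siRNA), so its transfected signals were above 5.28 and its control signal was near the lower quartile. No fold is given for these genes, although the counts with no filter include them, with USP45 as at least 2-fold higher.

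Among close relatives kept, USP15 stood furthest from USP4 and USP11 on the probe sets used, and other groups lay closer together. USP4, USP11 and USP15 share domain structure, and against control USP15 was at 3.41 and 2.58, USP4 at -0.05 and -0.45, and USP11 at -0.45 and -0.54 in vector and siRNA cells. USP12 and USP46 bind the same activators. USP12 was at 1.23 and 1.60, while USP46 was at 0.25 and 0.54 on the probe set used, with 9 probe sets of which 3 in vector and 4 in siRNA cells were past 2-fold. USP25 was at 1.33 and 0.85 and its relative USP28 at 0.27 and 0.46. USP5 was at -0.64 and -0.75, and USP13 at -0.31 and 0.11. The 3 USP13 probe sets ran from -0.31 to 0.55 and from 0.11 to 1.05. USP36 (-0.54 and -0.72) and USP42 (-0.11 and -0.24) both lay below control. The order of the next pair was reversed between vector and siRNA cells. USP22 was at -0.01 and -0.40, and the X-linked relative USP27X, whose symbol falls outside the rule, at -0.33 and -0.04. USP9X, also outside the rule, was at 0.76 and 0.99, with log2 signals of 8.50, 9.25 and 9.48. These are single arrays with no replicate error, and probe sets of a gene disagreed. Averaged over probe sets, USP15 was at 1.05 and 0.67, USP12 at 0.94 and 1.17, and USP46 at 0.57 and 0.72. The USP46 probe sets above 5.28 ran from 0.25 to 1.31 and from 0.54 to 1.47, close to USP12 at their upper ends.

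**Figure D4:**
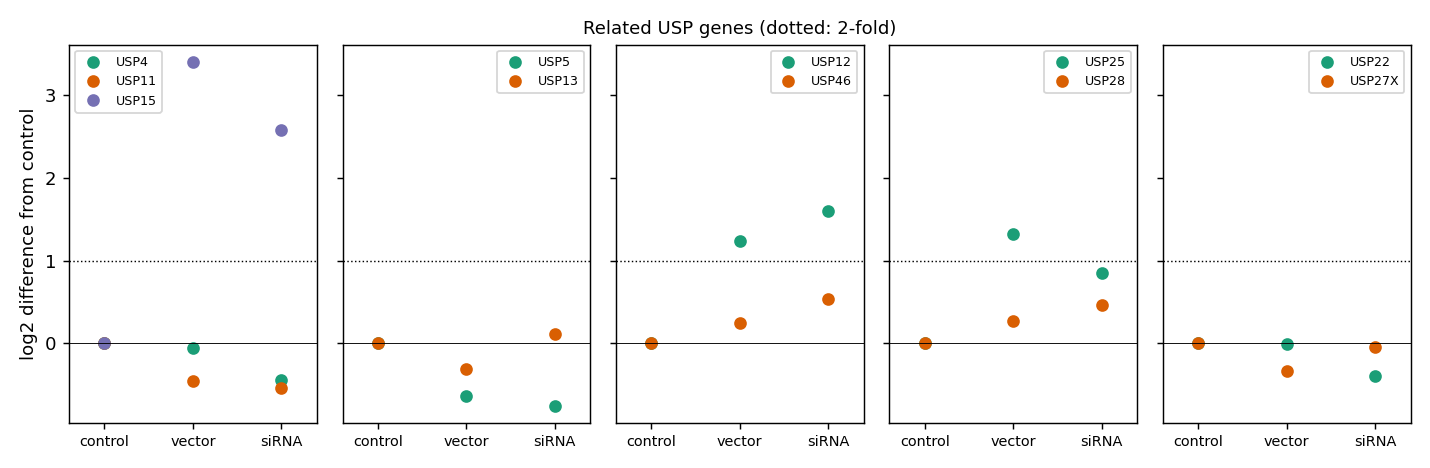
Log2 difference from control (y axis) of related USP genes on the vector and siRNA arrays, 1 array each, with control set at 0 and a dotted line at 2-fold. USP15, USP12 and USP25 (vector) lie above the line, and USP4, USP11, USP46, USP28, USP5, USP13, USP22 and USP27X lie below it.

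Deubiquitinases of other families were counted in the same way. Of 28 kept in the OTU, UCH, JAMM, Josephin and MINDY lists, 10 (35.7%) were at least 2-fold higher in vector cells and 1 lower, against 15.2% and 2.05% of all genes kept. In siRNA cells 10 were higher and 0 lower, against 14.9% and 1.85%. Of the 10, 6 (MYSM1, OTUD6B, MINDY2, VCPIP1, YOD1 and OTUD3) had control signals below 5.28 and passed the filter through the transfected arrays. With the filter on the control array 4 of 23 (17.4%) were higher in each group, against 12.4% and 12.1% of all genes. By family these were 1 of 9 OTU genes (11.1%), 1 of 5 JAMM genes (20%), 2 of 6 Josephin and MINDY genes (33.3%) and 0 of 3 UCH genes. The OTU genes higher in vector and siRNA cells were OTUD6B (3.71 and 3.08), YOD1 (3.46 and 3.12), VCPIP1 (2.51 and 2.06), OTUD4 (1.36 and 1.21) and OTUD3 (1.02 and 1.33). The others were MYSM1, which acts on H2A (3.77 and 2.92), BRCC3, which cuts K63-linked chains (1.32 and 1.10), MINDY2 (2.75 and 2.36), ATXN3 (2.14 and 1.76) and ZUP1 (1.72 and 1.55). MPND was at -1.06 and -0.68. The control signals of MYSM1 (3.25) and OTUD6B (3.58) lay below that array's lower quartile, so the size of their differences is uncertain. The UCH genes UCHL3 (0.79 and 0.52) and UCHL5 (0.86 and 0.57) did not reach 2-fold. Without probe sets whose names end in _x_at or _s_at, MYSM1 was at 1.24 and 0.64 and OTUD6B at 1.47 and 1.47. Averaged over probe sets OTUD3 was at 0.59 and 0.65, OTUD4 at 0.70 and 0.32, BRCC3 at 0.99 in siRNA cells and MPND at -0.87 in vector cells. MINDY2 was then at 1.77 and 1.54. USPL1, a USP-fold protease that acts on SUMO, was at 2.11 and 1.75, also from a control signal below 5.28.

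Few E2 or proteasome genes were at least 2-fold above control. Genes of E3 enzymes were not counted as a list. Of 25 E2 conjugating enzyme genes kept, 2 (8%) were at least 2-fold higher in each transfected group, UBE2V2 (1.77 and 1.89) and UBE2Q2 (1.06 and 1.32), and UBE2S was at -0.88 and -1.06. Of 27 proteasome genes kept, 2 (7.41%) were higher, PSMC6 (2.40 and 2.40) and PSMA3 (1.30 and 1.06), and PSMD3 was at -0.97 and -1.11. Of all genes kept, 15.2% and 14.9% were higher. Of the E1 genes, UBA6 was at 2.13 and 1.85 and UBA1 at -0.61 and -0.59. The ubiquitin gene UBB was at -0.14 and -0.10, with signals from 13.45 to 13.60. UBE2Q2 lost its call with averaged probe sets (0.70 and 0.83), and after centring UBE2S was at -0.89 and PSMD3 at -0.94 in siRNA cells. Averaged, PSMC6 was at 1.38 and 1.45 and UBA6 at 1.35 and 1.15.

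Of 16 partners and substrates of USP proteins kept, 4 (25%) were at least 2-fold higher in vector and 5 (31.2%) in siRNA cells, against 15.2% and 14.9% of all genes kept, with 0 lower. STAM2, an endosomal partner of USP8, was at 2.01 and 1.93. MDM4 (1.52 and 1.44) and MDM2 (1.40 and 1.15), both substrates of USP7, and ATXN7 of the SAGA complex (1.44 and 1.13) followed, and G3BP2 was at 0.70 and 1.04. Averaged over probe sets all of these but STAM2 missed 2-fold, with MDM4 at 0.79 and 0.69, MDM2 at 0.67 and 0.45, ATXN7 at 0.64 and 0.32 and G3BP2 at 0.51 in siRNA cells. None of the genes named in these lists was 2-fold apart between vector and siRNA cells.

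**Figure D5:**
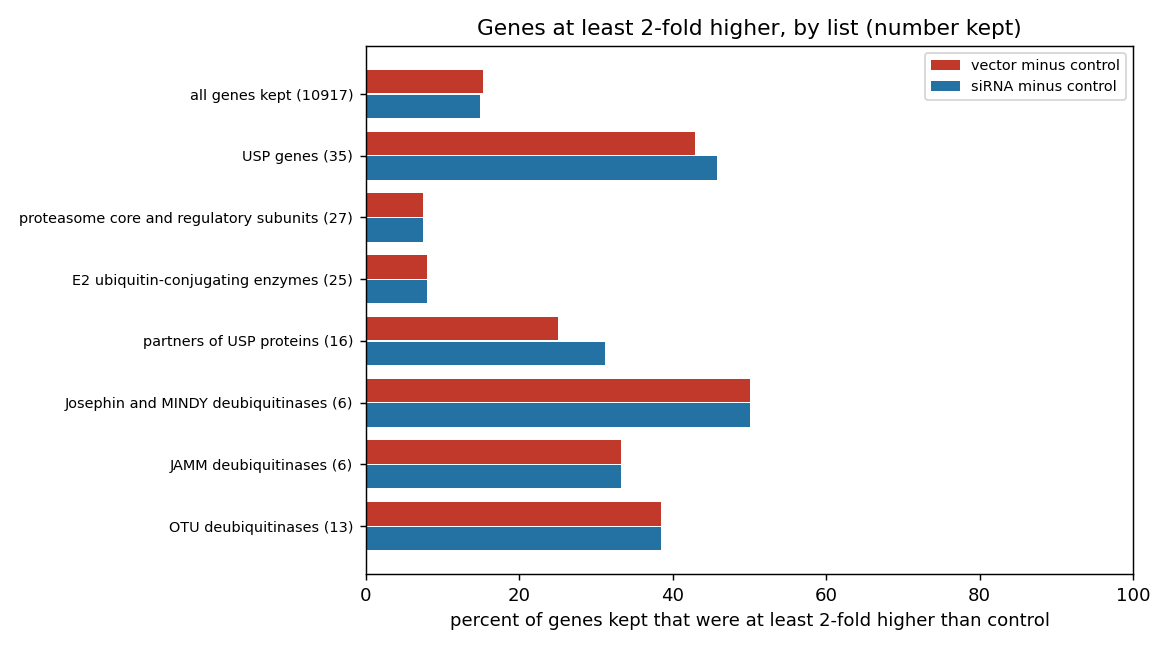
Percent of genes kept that were at least 2-fold higher than control (x axis, from 0) in vector and siRNA cells, for USP genes, all genes kept and each list with at least 5 genes kept; the number kept is in brackets. USP genes lie at 42.9% and 45.7%, the E2 enzymes at 8%, the proteasome subunits at 7.41% and all genes at 15.2% and 14.9%. Of the other deubiquitinases, the Josephin and MINDY genes lie at 50% in each group, the OTU genes at 38.5% and the JAMM genes at 33.3%. With the filter on the control array, not drawn here, these 3 lists were at 33.3%, 11.1% and 20%. The USP genes were then at 33.3% and 36.4%, and all genes at 12.4% and 12.1%.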

How the data were processed

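RNA of 3 samples was measured on expression arrays after biotin labelling (3' IVT), per the labels' protocols. The authors deposited 1 table of 49293 probe sets with a value per array, and the submitters' processing notes name RMA. The log2 scale was read from the range of the deposited values. The version and settings of RMA were not given in the sources used here. Differences of dim genes are compressed by RMA.

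A platform annotation gave 1 symbol for 44988 probe sets and several for 1832. All 45 member symbols were found in the RefSeq table. Multi-symbol probe sets were left out, among them 1 that names USP4. Groups came from the labels. Log2 differences were taken for each pair of arrays and counted past 2-fold. Motifs were searched in the first promoter listed for each gene, 10 members having several. The members and lists were chosen with earlier results of these data known. Genes named are members kept and past 2-fold in any comparison, the 2 most different members of a role or relative list with fewer than 2 of these, and, in other lists, genes past 2-fold or else the 2 most different. Further members are named to account for all 45. OTU, E2 and other genes absent from single-symbol probe sets were not analysed here. Only the counting past 2-fold was tried on simulated data, with known differences added to the gene levels. The probe set choice, the filter, the normalizations and the motif search were not tried in this way. Alternatives were thresholds of 1.5-fold and 3-fold, no filter or a 75th percentile filter, averaged probe sets, leaving out names ending in _x_at or _s_at, repeated quantile normalization, cyclic loess (span 0.4, 3 cycles) and centring. A filter on the control array, for the USP genes and the lists, was added after seeing the data. Python 3.11.15, numpy 2.4.6, pandas 2.3.3, statsmodels 0.14.6 and matplotlib 3.10.9 were used.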

Additional observations from a re-analysis of the deposited data

How the results depend on the processing

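No paired analysis was possible because each group has 1 array, and for the same reason no replicate could be left out. Under every alternative run at 2-fold or 3-fold, 0 USP genes kept were at least 2-fold lower than control, and 0 were 2-fold apart between vector and siRNA cells. With averaged probe sets this is because USP53 (1.09 in vector minus siRNA) then falls below the filter. Few of all genes passed in these directions either, so these counts of 0 do not set the family apart. The counts of USP genes past 2-fold were 15 in vector and 16 in siRNA cells. They were 8 and 9 with a 3-fold threshold (8.15% and 7.25% of all genes), 8 and 9 of 27 with averaged probe sets (12.8% and 11.3%), and 9 and 10 of 21 with the filter at the 75th percentile (15.8% and 15.7%), which leaves fewer genes. At 1.5-fold, 3 genes differed between vector and siRNA cells. At 1.5-fold against control, 17 were higher and 1 lower in vector cells (22.9% and 19.4% of all genes), and 17 higher and 3 lower in siRNA cells (22.8% and 18%). Repeated quantile normalization gave 12 and 14, against 13.2% and 13.5% of all genes. Cyclic loess gave 14 and 16 (15.4% and 15.7% of all genes) and centring 16 and 17 (18.1% and 17.9%). Without probe sets whose names end in _x_at or _s_at, 13 and 14 of 30 were higher, against 14.7% and 14.1%. No probe set was then left for USP6, USP24 and USP53. The median of siRNA minus control turned to -0.048 with averaged probe sets, and the cause was not tested. Otherwise the medians kept their sign, from 0.10 to 0.49 in vector and from 0.39 to 0.71 in siRNA cells. Among all genes kept, 88.1% of the 2-fold calls in vector cells and 88.9% in siRNA cells were higher, against 73.6% and 78.3% after repeated quantile normalization. That step moved the median of all genes in vector cells from -0.18 to -0.29, and centring moved it to 0. Dim control signals limit the size of the differences of USP16, USP15, USP44 and USP53.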

Other observations

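The vector minus control differences of the 35 USP genes kept left a gap. No gene lay between 0.30 (USP14) and 0.81 (USP6), with 18 genes at or below the former and 17 at or above the latter. In siRNA minus control the values around the same place were 0.54 (USP46) and 0.85 (USP25). This was noticed after the values were seen and has no test, and it rests on the probe sets used. Averaged over probe sets in vector cells, USP28 (0.33), USP46 (0.57), USP37 (0.71) and USP14 (0.807) lay inside the gap, and USP6 was at 0.18.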
